A study of Mus musculus with 38 samples.

Results

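Transcript levels of 7 matrix metalloproteinases (Mmp2, Mmp3, Mmp8, Mmp9, Mmp12, Mmp13 and Mmp14) and 3 of their tissue inhibitors (Timp1, Timp2 and Timp3) were followed through progression and chemotherapy of mouse mammary tumors. These 10 genes, of 28786 gene names on the array, were found by their symbols or an older synonym (Timp for Timp1) and were read by 14 of 41174 probes. Matrix metalloproteinases are zinc-dependent enzymes that cut collagens and other components of the extracellular matrix, as well as growth factors and receptors, after their inhibitory propeptide is removed. Timps bind the active site of these enzymes. In mammary tumors and in lung, fibroblasts, neutrophils and macrophages are known sources of these transcripts beside the tumor cells.

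The model was the MMTV-PyMT hyperplasia transplant, in which polyoma middle T antigen is driven by the mouse mammary tumor virus promoter, active mainly in mammary epithelium. Donors also carried actin-GFP, which marks cells of donor origin of any type, and both donors and FVB/n hosts were females of 3 weeks at transplantation. Per the study's methods, cells were sorted for GFP before RNA was taken. In the progression experiment, 5 adenomas came from 5-week outgrowths and 6 carcinomas from 18-week outgrowths. The 6 samples of disseminated cells came from lungs of mice with 18-week outgrowths, with the lungs of 3 to 6 mice pooled for a sample. The 5 samples of metastases came from lungs taken 8 to 10 weeks after the 18-week primary tumor had been removed. In the chemotherapy experiment, tumors of 8 weeks received docetaxel, doxorubicin and cyclophosphamide every 21 days. The 6 untreated tumors are labeled Control, the 6 residual tumors, labeled Regressed, were taken 10 days after the first dose, and the 4 relapsed tumors, labeled Resistant, 10 days after the fourth.

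Each of the 38 samples was labeled with Cy5 and hybridized with a Cy3-labeled Universal mouse reference, so a level is a log2 ratio of sample to reference RNA, in which 0 means equal signals, and levels of different genes cannot be ranked. In limma, a call needed both an adjusted p under 0.05 and a difference of 2-fold or more, which is 1 on the log2 scale. The sample channel was well above background at 48.4 to 75.5% of spots in adenomas, at 63.8 to 78.9% in the other progression groups and at 50.5 to 64.3% in the chemotherapy experiment. Carcinoma replicate 6 stood apart from the other carcinomas, and results that rest on it are given with and without it. Carcinoma and metastases shared 3 slides, and adenoma and disseminated cells shared 3 slides scanned on another day. For the other 4 pairs of progression groups, scan day and group cannot be told apart. Nothing in the labels says that the samples of a group came from separate mice, so p-values measure the spread between these samples.

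The probes for Mmp13, Mmp12, Mmp3 and Mmp8 lay on chromosome 9, at positions 7280046, 7352125, 7453874 and 7566361 of mm7, the build written in the array files, within a cluster of metalloproteinase genes. The other members lay elsewhere, Mmp2 on chromosome 8, Mmp9 on 2, Mmp14 on 14, Timp1 on X, Timp2 on 11 and Timp3 on 10. Proximal promoters of the 4 clustered genes are shown because Mmp12 and Mmp13 had high levels on the same arrays. Each stretch runs from 100 bases before to 20 bases after a RefSeq transcript start on the + strand of GRCm38.p6, and capitals mark the AP-1 motif TGACTCA or its reverse complement TGAGTCA.
Mmp13, chr9:7272414-7272533: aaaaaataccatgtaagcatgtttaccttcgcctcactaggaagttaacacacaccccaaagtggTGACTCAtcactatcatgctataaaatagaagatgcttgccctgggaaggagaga
Mmp12, chr9:7347274-7347393: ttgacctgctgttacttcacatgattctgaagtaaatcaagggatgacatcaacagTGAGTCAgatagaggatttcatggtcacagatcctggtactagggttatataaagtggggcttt
Mmp3, chr9:7445722-7445841: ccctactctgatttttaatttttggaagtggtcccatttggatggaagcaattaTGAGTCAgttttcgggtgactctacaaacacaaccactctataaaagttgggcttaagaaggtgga
Mmp8, chr9:7558329-7558448: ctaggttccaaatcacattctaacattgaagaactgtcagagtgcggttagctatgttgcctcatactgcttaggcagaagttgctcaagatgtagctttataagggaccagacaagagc
The motif began 35 bases before the start in Mmp13, 44 in Mmp12 and 46 in Mmp3, and was not found in the stretch of Mmp8. Another start of Mmp12 had no such motif. The table held 9 promoters of 8 member genes. Of these 9 promoters, 3 held the motif within 250 bases before to 50 after a start, as did 5.20% of all 32851 promoters. Mmp2 and Mmp9 were not among the 8.

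**Figure D1:**
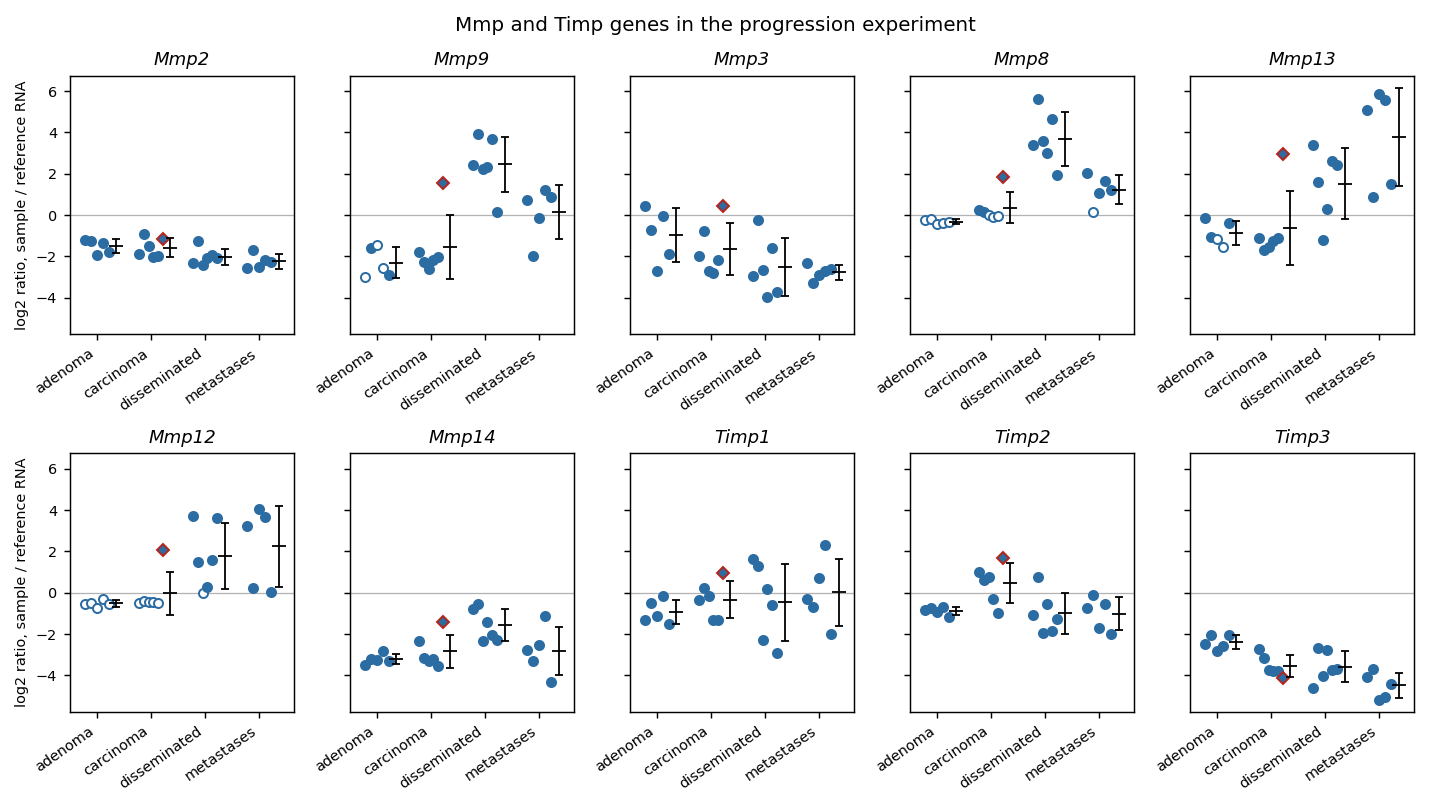
Log2 ratio of sample to reference RNA (vertical axis) for the 10 genes in the 4 progression groups. Each point is an array, filled where the sample channel was well above background and open where it was not, the diamond with a red edge is carcinoma replicate 6, and the bars give mean ± SD. Mmp8 and Mmp9 were highest in disseminated cells, Mmp13 reached 5.87 in metastases, and Timp3 was lowest in metastases.

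Disseminated cells and metastases differed from primary tumors in several of these genes. Against adenoma, Mmp8, Mmp9 and Mmp12 were called higher and Timp3 lower in both, while Mmp14 was called in disseminated cells and Mmp13 in metastases. Between carcinoma and adenoma, 1 of the 10 members was called, where 3.3% of all genes were, and it was lower in carcinoma (all genes lower, 2.14%). Between disseminated cells and adenoma 5 members were called (all genes, 10.5%), 4 of them higher and 1 lower in disseminated cells (all genes, 4.65% and 5.82%). Between metastases and adenoma 5 members were called (all genes, 14.6%), again 4 of them higher and 1 lower (all genes, 6.09% and 8.47%). Against carcinoma, 4 were called in disseminated cells (all genes, 11.6%), 3 of them higher and 1 lower (all genes, 5.5% and 6.07%). In metastases 3 were called against carcinoma (all genes, 10.1%), 2 of them higher and 1 lower (all genes, 4.75% and 5.3%). Between metastases and disseminated cells 2 members were called, both lower in metastases (all genes, 7.12%, and lower, 3.69%). The median log2 change of the 10 members was 1.06 for disseminated cells and 0.67 for metastases against adenoma, where the medians over all genes were −0.01 and 0.01. The comparisons that share a group are not independent of each other.

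**Figure D2:**
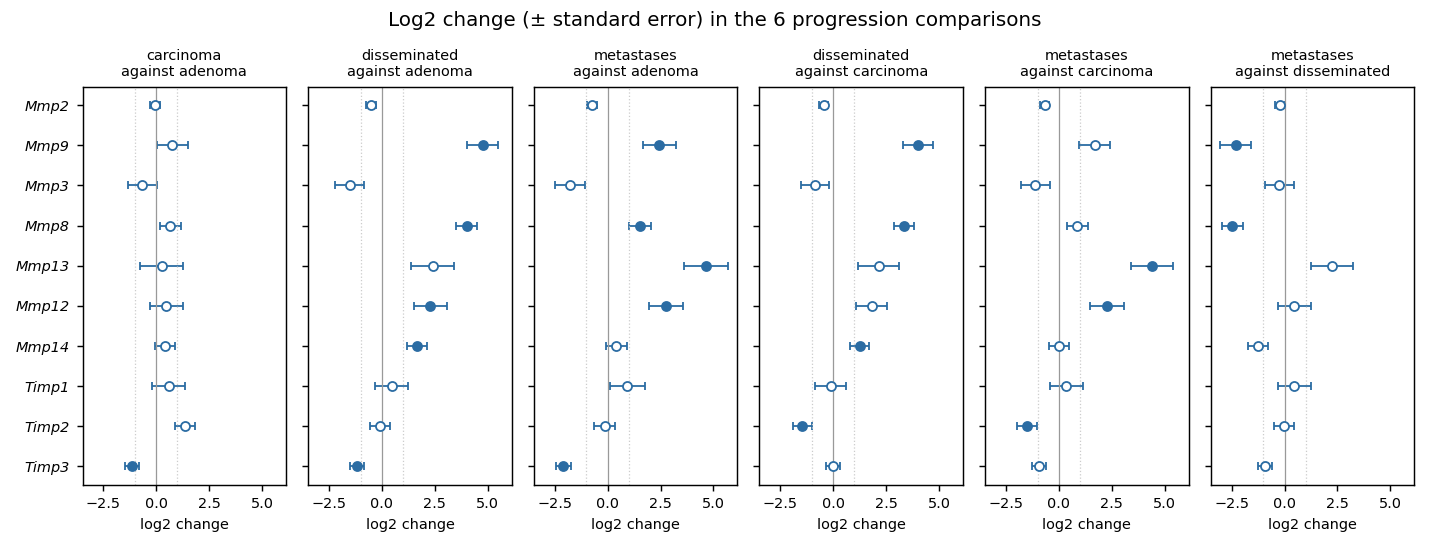
Log2 change (horizontal axis) of each gene in the 6 progression comparisons, with its standard error from limma. Filled points passed the adjusted p and the 2-fold threshold (dotted lines), and open points did not. The rises of Mmp8 and Mmp9 stand out in disseminated cells and the rise of Mmp13 in metastases, whereas Timp3 lies to the left against adenoma in all 3 later groups.

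Mmp9, gelatinase B, cleaves denatured collagen and collagen IV of basement membranes and is stored in granules of neutrophils. Its log2 ratios were −2.99, −1.59, −1.42, −2.57 and −2.90 in adenomas, where only 2 of 5 arrays were well above background. In carcinomas they ran from −2.62 through a median of −2.08 to 1.54. In disseminated cells they ran from 0.15 through 2.39 to 3.91, and in metastases they were 0.73, −1.98, −0.13, 1.23 and 0.87. All disseminated samples lay above all adenomas and above every carcinoma except replicate 6. Mmp9 was 26.9-fold higher in disseminated cells than in adenoma (log2 change 4.75, standard error 0.741, adjusted p = 0.000526) and 16.0-fold higher than in carcinoma (adjusted p = 0.000595). Neither rise lost its call under any setting tried, but with processed signals they were 6.81 and 4.72, and with the deposited ratios the first was 5.54. Without carcinoma replicate 6 the change against carcinoma was 4.62. Metastases were higher than adenoma by 2.44 (adjusted p = 0.0231, and 4.27 with processed signals), although replicate 2 lay within the adenoma range, and lower than disseminated cells by a change of −2.31 (adjusted p = 0.0445). The rise over adenoma was not called without metastases replicate 1 or 4 or adenoma replicate 5 (adjusted p 0.0503 to 0.0625). Aquantile or no scaling across arrays and the replicate block lost it too (adjusted p 0.0515 to 0.0896). The difference from disseminated cells was lost without any of 9 of the 11 arrays compared, the exceptions being disseminated replicate 6 and metastases replicate 4 (adjusted p 0.0518 to 0.142). The change of 1.69 in metastases against carcinoma missed the threshold (adjusted p = 0.111) but was 2.31 without carcinoma replicate 6 (adjusted p = 0.00978), and it was also called without metastases replicate 2 (adjusted p = 0.0405). A second probe of Mmp9, tested among all probes, rose by 2.68 (adjusted p = 0.00468) and 2.94 (adjusted p = 0.00105) in disseminated cells against adenoma and carcinoma, while its change of 1.15 in metastases against adenoma was not called (adjusted p = 0.170).

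Mmp2, gelatinase A, is a product chiefly of fibroblasts and is activated at the cell surface by Mmp14 together with Timp2. It was well above background on all arrays, with −1.21, −1.24, −1.94, −1.34 and −1.76 in adenomas and −2.57, −1.71, −2.51, −2.19 and −2.25 in metastases. Carcinomas ran from −2.03 through −1.68 to −0.90 and disseminated cells from −2.39 through −2.10 to −1.27, so all groups overlapped with adenoma. Metastases lay below adenoma by 0.75 (log2 change −0.75, adjusted p = 0.0267) and below carcinoma with a change of −0.68 (adjusted p = 0.0430), both short of 2-fold.

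Mmp3, stromelysin-1, degrades proteoglycans, laminin and fibronectin and can activate other proenzymes. Its values were widely spread in adenomas, at 0.45, −0.70, −2.71, −0.05 and −1.90. They ran from −2.78 through −2.06 to 0.46 in carcinomas and from −3.96 through −2.79 to −0.22 in disseminated cells, and were −2.32, −3.30, −2.91, −2.70 and −2.60 in metastases. Metastases were the narrowest group and overlapped with all others. No comparison of Mmp3 was called. The log2 change was −1.53 (adjusted p = 0.119) in disseminated cells and −1.79 (adjusted p = 0.0667) in metastases against adenoma, and −1.11 (adjusted p = 0.272) in metastases against carcinoma. The first of these was called without disseminated replicate 2 (adjusted p = 0.0328) and the second without adenoma replicate 3 (adjusted p = 0.0307).

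Mmp8, neutrophil collagenase, cleaves fibrillar collagens and is best known from neutrophil granules. It was not well above background on any adenoma, where its log2 ratios were −0.23, −0.19, −0.45, −0.38 and −0.31. It was above background on 3 of 6 carcinomas, with values from −0.07 through 0.08 to 1.86, the highest in replicate 6, and carcinomas lay above adenomas without a call (log2 change 0.67, adjusted p = 0.410). In disseminated cells it was above background on every array, from 1.93 through 3.49 to 5.63. Metastases lay between, at 2.02, 0.17, 1.09, 1.65 and 1.23, with 4 of 5 above background. The 6 disseminated samples did not overlap with adenoma or carcinoma. The log2 ratio of Mmp8 was higher than in adenoma by 4.01 in disseminated cells (16.1-fold, adjusted p = 7.0e-05) and by 1.54 in metastases (2.92-fold, adjusted p = 0.0308). Since adenomas had only a bound, the sample channel alone was also set against the lowest signal well above background, which gave at least 16.4-fold and at least 2.94-fold. These bounds are on another scale than the log2 ratios and were not tested. Against carcinoma it was 10.2-fold higher in disseminated cells (log2 change 3.34, adjusted p = 1.0e-04), and 3.65 without carcinoma replicate 6. Between metastases and disseminated cells the change was −2.47 (adjusted p = 0.00298). The rises in disseminated cells were called under all settings tried, but their size depended on the background correction. With processed signals they were 6.80 over adenoma and 5.60 over carcinoma, and the rise in metastases was 3.87. With an offset of 0 for normexp these were 5.64, 4.37 and 2.76. The rise in metastases over adenoma was not called without metastases replicate 1 or 4 or adenoma replicate 3, 4 or 5 (adjusted p 0.0502 to 0.0806).

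Markers of neutrophils moved beside Mmp8 and Mmp9 in disseminated cells, and less so in metastases. Of 10 such markers on the array, 6 were called higher in disseminated cells than in adenoma and 7 than in carcinoma, and 6 were called lower in metastases than in disseminated cells. In metastases against adenoma 2 were called higher and 1 lower. Retnlg rose by 5.75 (adjusted p = 0.00036) and S100a9, a subunit of calprotectin, by 4.68 (adjusted p = 0.0015) in disseminated cells over adenoma. The mean log2 ratio of the list was 1.67 to 1.98 in adenomas, 1.85 to 3.56 in carcinomas, 2.93 to 5.32 in disseminated cells and 1.67 to 3.65 in metastases. It was highest in disseminated replicate 2, as were Mmp8 and Mmp9, and lowest among disseminated cells in replicate 6, as were these genes. In carcinomas it was highest in replicate 6. Metastases replicate 4 had the lowest list mean of its group, 1.67, but the highest Mmp9, 1.23, and 1.65 for Mmp8. Metastases replicate 1, with a list mean of 3.56, had the highest Mmp8 of that group, 2.02. Whether the neutrophil transcripts had a part in the levels of Mmp8 and Mmp9 was not tested, and in such bulk samples fewer cells of a type and less RNA per cell cannot be told apart.

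Mmp13, collagenase-3, is the main interstitial collagenase of rodents. It was well above background on 3 of 5 adenomas and on all other progression arrays. Its log2 ratios were −0.14, −1.08, −1.17, −1.56 and −0.40 in adenomas. Carcinomas ran from −1.68 through −1.19 to 2.96, and disseminated cells from −1.20 through 2.01 to 3.41. Metastases had 5.08, 0.88, 5.87, 5.57 and 1.49. All metastases lay above all adenomas, and replicates 1, 3 and 4 lay above every other array of the experiment. Metastases were 25.1-fold higher than adenoma (log2 change 4.65, standard error 1.05, adjusted p = 0.00268) and 21.2-fold higher than carcinoma (4.40, adjusted p = 0.00448). Both calls were kept under all settings tried. With processed signals the changes were 6.04 and 5.18, and without carcinoma replicate 6 the second change was 5.12 (adjusted p = 0.000569). Within slides, metastases exceeded carcinomas by 5.16 and 6.65 on slides 1 and 2, whereas the difference was −0.05 on slide 3, which held carcinoma replicate 6 and metastases replicate 2. Disseminated cells exceeded adenoma by 2.40 (adjusted p = 0.0966) and carcinoma by 2.15 (adjusted p = 0.104) without a call, and the change from disseminated cells to metastases was 2.25 (adjusted p = 0.152). The change of disseminated cells against carcinoma was called without carcinoma replicate 6 (2.87, adjusted p = 0.0175), and both changes of disseminated cells were called without disseminated replicate 3 (adjusted p 0.0475 and 0.0467). With processed signals the change against adenoma was 3.59 (adjusted p = 0.0390).

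Mmp12, macrophage elastase, degrades elastin and is known as a product of macrophages. It was not well above background on any adenoma, with log2 ratios of −0.52, −0.51, −0.72, −0.28 and −0.52, and among carcinomas only in replicate 6. Carcinomas ran from −0.51 through −0.44 to 2.09, disseminated cells from −0.03 through 1.55 to 3.69, and metastases had 3.24, 0.22, 4.03, 3.69 and 0.04. The same metastases, replicates 1, 3 and 4, were high for Mmp12 and Mmp13. Neither disseminated cells nor metastases overlapped with adenoma. The log2 ratio of Mmp12 was higher than in adenoma by 2.29 in disseminated cells (4.89-fold, adjusted p = 0.0451, 5 of 6 arrays above background) and by 2.76 in metastases (6.76-fold, adjusted p = 0.0167). By the signal of the sample channel alone the bounds were at least 4.91-fold and at least 7.74-fold. With processed signals the log2 changes were 4.17 and 4.61, and with an offset of 0 for normexp 3.32 and 3.71. Against carcinoma Mmp12 was higher in metastases by 2.28 (adjusted p = 0.0437), by 4.51 with processed signals and by 3.18 with an offset of 0. This call was kept without carcinoma replicate 6 (adjusted p = 0.0139), but no other carcinoma was above background, so that change has no measured size. On slides 1 and 2 metastases exceeded carcinomas by 2.47 and 3.92, and on slide 3 the difference was −0.57. The change of 1.81 in disseminated cells against carcinoma (adjusted p = 0.0811) was called without carcinoma replicate 6 (adjusted p = 0.0274) and without disseminated replicate 3 or 4 (adjusted p 0.0468 and 0.0462). Processed signals (adjusted p = 0.0173), an offset of 0 for normexp (adjusted p = 0.0250) and Aquantile or no scaling across arrays (adjusted p = 0.0477) also led to a call.

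The 3 calls of Mmp12 were less stable than those of Mmp13. The rise in disseminated cells over adenoma was lost when any adenoma, or disseminated replicate 1, 2, 5 or 6, was left out (adjusted p 0.0553 to 0.103). It was also lost with the deposited ratios and with Aquantile or no scaling across arrays (adjusted p 0.0714 to 0.0806 over the settings that lost it). The rise in metastases over adenoma was lost without metastases replicate 3 (adjusted p = 0.0527), and the rise over carcinoma without any of carcinoma replicates 1 to 5 or metastases replicates 1, 3 or 4 (adjusted p 0.0787 to 0.135).

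Markers of macrophages moved beside Mmp12 and Mmp13 in metastases and in carcinoma replicate 6, but not on every array of disseminated cells. Of 13 markers, 11 were called higher in disseminated cells and 9 in metastases than in adenoma, and 7 and 3 than in carcinoma. Over adenoma, the lysozyme gene Lyz2 rose by 6.67 in disseminated cells (adjusted p = 0.00163) and by 5.45 in metastases (adjusted p = 0.00366), and the mannose receptor gene Mrc1 by 4.86 (adjusted p = 0.00174) and 3.59 (adjusted p = 0.00781). The mean log2 ratio of the list was 0.12 to 0.67 in adenomas, −0.13 to 4.72 in carcinomas and 3.27 to 4.72 in disseminated cells. In metastases it was 3.52, 1.09, 4.29, 5.01 and 1.31, so that replicates 1, 3 and 4 were high here too. Among carcinomas the highest value was that of replicate 6, and the next was 0.99. Among disseminated cells replicate 1 was highest for the list (4.72), Mmp12 and Mmp13. Replicate 3, with a list mean of 3.39, had −0.03 for Mmp12, not well above background, and −1.20 for Mmp13. Disseminated replicate 4, with a list mean of 3.27, had 0.26 for Mmp12 and 0.31 for Mmp13. Markers of alveolar macrophages, which reside in lung, were called higher in disseminated cells than in adenoma for 8 of 9 genes, with 1 lower, and in metastases for 5 of 9. Their mean was 0.96 to 1.5 in adenomas, 1.19 to 2.78 in carcinomas, 4.11 to 5.36 in disseminated cells and 2.51 to 4.47 in metastases. Markers of mammary epithelium, which the sort for donor cells was meant to retain, had means of 3.67 to 4.36 in adenomas, 2.73 to 4.31 in carcinomas, 0.23 to 3.99 in disseminated cells and 0.39 to 4.14 in metastases. The part of the macrophage transcripts in the levels of these proteases was not tested.

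**Figure D3:**
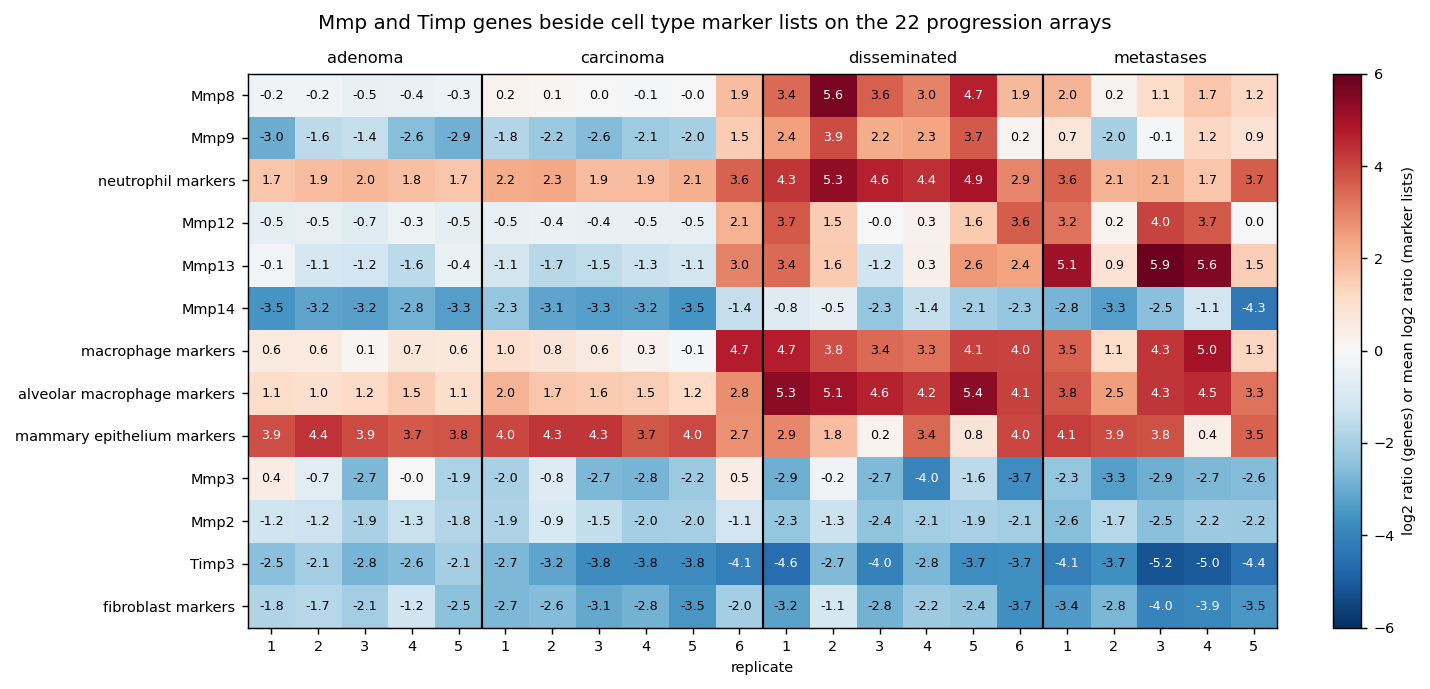
Log2 ratios of 8 genes and mean log2 ratios of 5 marker lists (rows) on the 22 progression arrays (columns, by group and replicate), with the value written in each cell. Mmp12, Mmp13 and the macrophage markers were high in metastases replicates 1, 3 and 4 and low in replicates 2 and 5, and carcinoma replicate 6 differed from the other carcinomas in each of these rows.

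Mmp14, the membrane-type enzyme MT1-MMP, cleaves collagen at the cell surface and activates proMmp2. Its log2 ratios were −3.52, −3.19, −3.25, −2.82 and −3.30 in adenomas, ran from −3.53 through −3.17 to −1.42 in carcinomas and from −2.32 through −1.73 to −0.55 in disseminated cells, and were −2.77, −3.29, −2.52, −1.13 and −4.31 in metastases. Every disseminated sample lay above every adenoma. Disseminated cells were 3.13-fold higher than adenoma (log2 change 1.64, standard error 0.470, adjusted p = 0.0184), which was kept under all settings tried for this probe, and 2.38-fold higher than carcinoma (1.25, adjusted p = 0.0442). The latter was 1.53 without carcinoma replicate 6 (adjusted p = 0.0112), and its call was lost without carcinoma replicate 2, 3, 4 or 5 or disseminated replicate 1, 2 or 4 (adjusted p 0.0640 to 0.0998). It was also lost with slide as a random block and with only these groups in the fit (adjusted p 0.0515 to 0.0758 over the settings that lost it). The change from disseminated cells to metastases was −1.23 (adjusted p = 0.0907), and −1.65 without metastases replicate 4 (adjusted p = 0.0158). A second probe of Mmp14, tested among all probes, gave another order of the groups. Its change in disseminated cells against adenoma was 1.01 (adjusted p = 0.214), while metastases were higher than adenoma by 1.82 (adjusted p = 0.0230) and higher than carcinoma by 1.86 (adjusted p = 0.0207). The direction between metastases and disseminated cells was thus opposite for the second probe, at 0.81 (adjusted p = 0.375), so the level of Mmp14 in metastases was not settled by these probes.

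Timp3, an inhibitor bound to the extracellular matrix, was called lower than adenoma in all 3 later groups. Its log2 ratios were −2.50, −2.05, −2.81, −2.58 and −2.06 in adenomas and −4.09, −3.70, −5.18, −5.04 and −4.42 in metastases, with no overlap. Carcinomas ran from −4.12 through −3.76 to −2.70 and disseminated cells from −4.59 through −3.70 to −2.67, each overlapping with adenoma. Timp3 fell by 2.09 on the log2 scale in metastases, 4.25-fold (standard error 0.354, adjusted p = 0.000285), under all settings tried. In carcinoma it fell by 1.15 (adjusted p = 0.0333) and in disseminated cells by 1.17 (adjusted p = 0.0193). Without carcinoma replicate 6 the change in carcinoma was −1.04 (adjusted p = 0.0616), and this call was also lost without carcinoma replicate 3, 4 or 5 or adenoma replicate 2 or 5. Processed signals, Aquantile or no scaling across arrays and the deposited ratios lost it too (adjusted p 0.0574 to 0.0704). In disseminated cells the change was −0.97 without replicate 1, below 2-fold. Aquantile or no scaling across arrays and the deposited ratios also lost this call (adjusted p 0.0461 to 0.0799 over the settings that lost it). Under these settings the fall was as small as a change of −0.895.

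Timp2, which inhibits the enzymes and also takes part in the activation of Mmp2, was highest in carcinoma. Adenomas were close together at −0.85, −0.75, −0.94, −0.70 and −1.16. Carcinomas ran from −0.97 through 0.69 to 1.70, disseminated cells from −1.96 through −1.17 to 0.76, and metastases had −0.76, −0.09, −1.70, −0.55 and −1.99. All pairs of groups overlapped. Timp2 fell by 1.46 from carcinoma in disseminated cells (standard error 0.455, adjusted p = 0.0222) and by 1.49 in metastases (standard error 0.477, adjusted p = 0.030). Without carcinoma replicate 6 these changes were −1.22 (adjusted p = 0.0475) and −1.25 (adjusted p = 0.0567). The call in disseminated cells was lost without carcinoma replicate 1 or disseminated replicate 3 or 5 (adjusted p 0.0510 to 0.0573), and that in metastases without carcinoma replicate 1, 2, 3 or 6 or metastases replicate 3 or 5 (adjusted p 0.0557 to 0.0854). The change of 1.35 in carcinoma against adenoma missed the threshold (adjusted p = 0.0706), and passed it without carcinoma replicate 5 (1.64, adjusted p = 0.0315).

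Timp1, a secreted inhibitor that many cells induce on stimulation, was not called in any comparison, by any of its 3 probes. It stood at −1.33, −0.49, −1.13, −0.17 and −1.50 in adenomas and at −0.32, −0.68, 0.74, 2.33 and −1.99 in metastases. It ran from −1.34 through −0.25 to 0.95 in carcinomas and from −2.93 through −0.21 to 1.63 in disseminated cells. The spread in disseminated cells (SD 1.86, n = 6) and metastases (SD 1.62, n = 5) exceeded any difference between group means.

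By group, fibroblast markers moved beside the falls of Timp3 and the low levels of Mmp2 and Mmp3 in metastases. Of 11 markers, 6 were called lower in metastases than in adenoma, 3 in carcinoma and 3 in disseminated cells, among them Postn, periostin (change in metastases −3.22, adjusted p = 5.4e-05), and Col1a1, a chain of type I collagen (−3.14, adjusted p = 0.00028). The mean log2 ratio of the list was −2.46 to −1.21 in adenomas, −3.48 to −2.05 in carcinomas, −3.69 to −1.08 in disseminated cells and −4.03 to −2.76 in metastases. Carcinoma replicate 6 had the highest list mean of the carcinomas, −2.05, and the highest Mmp3, 0.46, but the lowest Timp3, −4.12. The lowest Timp3 of the other carcinomas was −3.78. The part of the fibroblast transcripts in the levels of these genes was not tested.

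Over the 22 progression arrays, the genes of most similar pattern were listed for the 6 members well above background on all of them, among 11117 genes. Mmp2 was most alike to Svep1 (Pearson r = 0.843), Mfap2 (0.835) and Mmp23 (0.791), and Mmp3 to Svep1 (0.765), Mmp2 (0.765) and Cpxm1 (0.764). Mmp14 was most alike to Abcc3 (0.930), Adap2 (0.905) and Rgl1 (0.903), and Timp3 to Lima1 (0.907), Foxo1 (0.903) and Zfpm1 (0.897). Timp1 was most alike to Arhgap22 (0.804), Igf1 (0.801) and Naglu (0.758), and Timp2 to Enpp1 (0.841), Olfml3 (0.785) and Pde1a (0.770). The arrays share groups and slides, and these values are descriptions.

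Other genes of matrix proteolysis were counted by list. Of 16 other metalloproteinases and inhibitors on the array, 2 were called higher and 2 lower in disseminated cells than in adenoma. Mmp19 rose by 2.36 (adjusted p = 0.023) and Mmp25, a membrane-bound enzyme of leukocytes, by 1.56 (adjusted p = 0.020), whereas the membrane-type enzyme Mmp15 fell by 1.45 (adjusted p = 0.034) and Mmp11, stromelysin-3, by 1.23 (adjusted p = 0.0076). In metastases Mmp10, stromelysin-2, rose over adenoma by 1.47 (adjusted p = 0.023), while Mmp15 fell by 2.01 (adjusted p = 0.0048) and Mmp11 by 1.27 (adjusted p = 0.0049). Timp4 was lower than in carcinoma in both disseminated cells (−1.15) and metastases (−1.23). The median change of this list against adenoma was 0.03 in disseminated cells and 0.12 in metastases.

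Plasmin, which activates several proMmps, is controlled by the plasminogen activators and their inhibitors. In metastases against adenoma, Serpinb2, which encodes plasminogen activator inhibitor 2, rose by 4.68 (adjusted p = 4.0e-05). Plat, the tissue-type activator, rose by 1.68 (adjusted p = 0.0014) and Plaur, the urokinase receptor, by 1.45 (adjusted p = 0.0045), both named after their values were seen. In disseminated cells Serpinb2 rose by 2.89 (adjusted p = 0.0029) and Plaur by 1.24 (adjusted p = 0.015). Among 13 Adam and Adamts proteases, Adam8, found on leukocytes, rose by 3.37 (adjusted p = 0.0061) and Adam17, the main sheddase of tumor necrosis factor, by 1.33 (adjusted p = 0.010) in disseminated cells over adenoma. In metastases Adamts4, an aggrecanase, rose by 2.67 (adjusted p = 4.3e-05) and Adam9 by 1.08 (adjusted p = 0.033), while Adamts2, a procollagen peptidase, fell by 1.76 (adjusted p = 0.0065).

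In the chemotherapy experiment no member was called between residual and untreated tumors (all genes, 0.0938%), relapsed and untreated tumors (0.0104%) or relapsed and residual tumors (0.212%). At an unadjusted p below 0.05 by limma, there was 1 member in each comparison, Mmp12 for residual against untreated, Mmp9 for relapsed against untreated and Mmp12 for relapsed against residual tumors, where 9.11%, 7.63% and 7.73% of all genes passed. No setting tried gave a called member. This does not show that the levels were alike.

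The levels overlapped between the groups for every member. Mmp13 was well above background in all 16 tumors. It ran from 0.01 through 1.28 to 2.54 in untreated and from −0.05 through 0.71 to 2.52 in residual tumors, and was 0.60, 2.38, 1.96 and 1.41 in relapsed tumors. Mmp12 was well above background in 3 untreated and 2 relapsed tumors and in no residual tumor. It ran from −0.32 through 0.22 to 0.75 in untreated and from −0.73 through −0.26 to −0.04 in residual tumors, and was 0.53, −0.10, 0.50 and −0.32 in relapsed tumors. Mmp8 was not well above background in any of the 16 tumors. Mmp9 was above it in 2 untreated, 2 residual and 3 relapsed tumors, with means of −2.15 ± 0.15 (SD, n = 6), −1.95 ± 0.29 (SD, n = 6) and −1.75 ± 0.49 (SD, n = 4) from the probe that was brighter in this experiment.

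The other 6 members were well above background in all tumors. Mmp2 stood at −1.99 ± 0.66 in untreated (SD, n = 6), −2.24 ± 0.19 in residual (SD, n = 6) and −2.26 ± 0.17 in relapsed tumors (SD, n = 4), with untreated replicate 6 at −0.72 above all others. Mmp3 stood at −1.98 ± 1.22, −1.85 ± 0.67 and −1.47 ± 0.55 in the same order, and Mmp14 at −1.14 ± 0.65, −1.14 ± 0.62 and −1.26 ± 0.34. Of the inhibitors, Timp1 stood at −1.23 ± 0.75, −1.79 ± 0.47 and −1.59 ± 0.52, Timp2 at −0.64 ± 1.05, −1.28 ± 0.74 and −1.40 ± 0.64, and Timp3 at −2.18 ± 0.56, −2.16 ± 0.40 and −1.99 ± 0.14. Every difference between means was smaller than 1 on the log2 scale. Of the 13 macrophage markers, none was called in any chemotherapy comparison, and their mean ran from −0.03 to 2.55 in untreated, −0.29 to 1.79 in residual and −0.54 to 1.13 in relapsed tumors. The experiments were normalized separately and labeled after different amplification, so their levels were not compared.

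**Figure D4:**
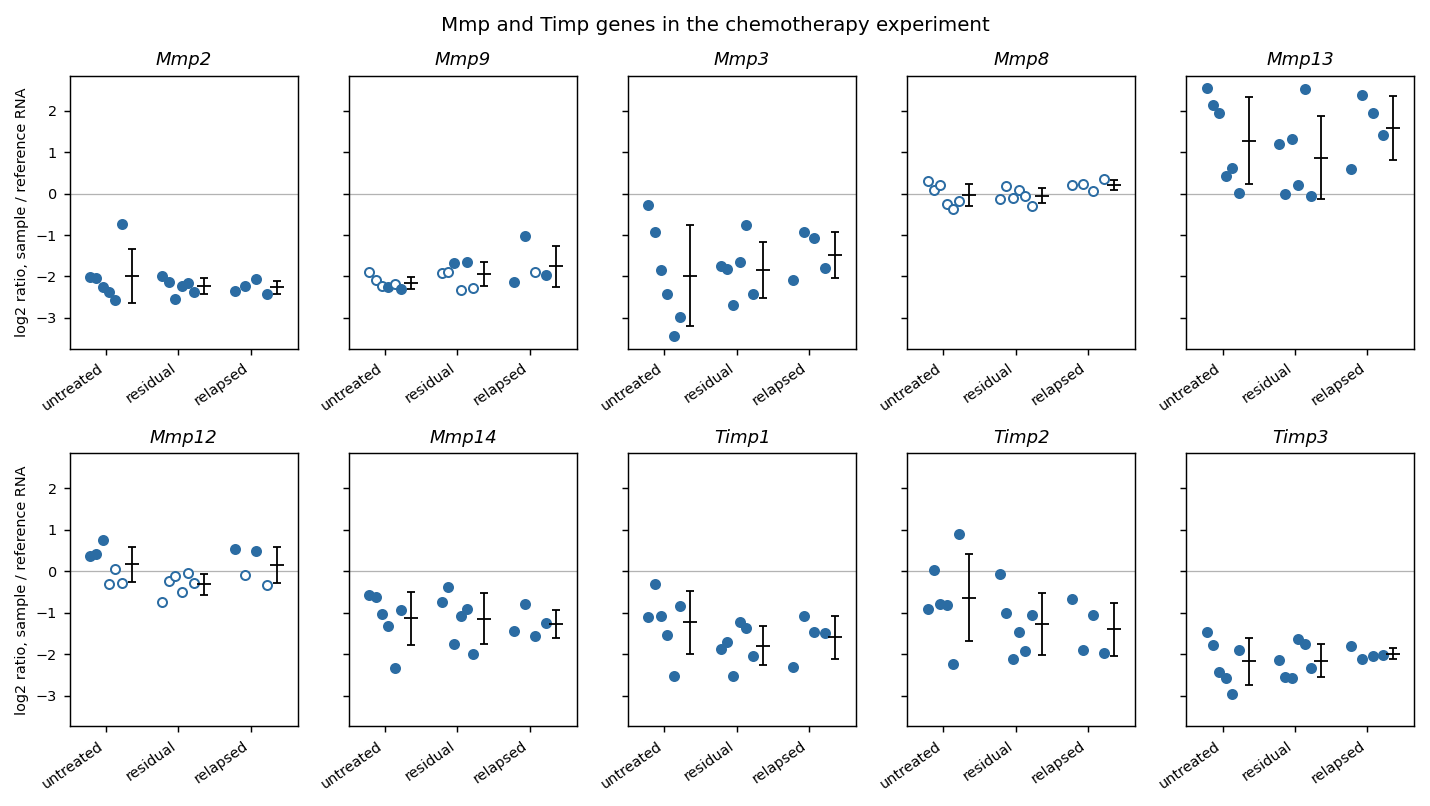
Log2 ratio of sample to reference RNA (vertical axis) for the 10 genes in 6 untreated, 6 residual and 4 relapsed tumors. Each point is a tumor, filled where the sample channel was well above background and open where it was not, and the bars give mean ± SD. The 3 groups overlap for all 10 genes.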

How the data were processed

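RNA of 38 samples was measured on Agilent 2-color arrays, analyzed by the authors with Feature Extraction 10.7. The authors deposited spot intensities without normalization (mean signal and local background per channel, a processed signal, and flags scored 0 or 1), and a matrix of log2 ratios corrected for background and normalized by them, which served as an alternative. The array design gives probe positions in mm7.

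From the intensities, normexp (offset 50) was used for background, loess for each array and quantile scaling across an experiment. Spots with outlier flags were left out, and the probe of highest mean signal stood for its gene (R 4.3.3, limma 3.58.1, statmod 1.5.0). Of the probes, 22951 were named through RefSeq accessions and 18223 by the name in the files. Each experiment had its own limma fit over its groups, with no covariate and with Benjamini-Hochberg adjustment over 28786 genes. "At least" folds set the brighter group against the higher of the dim probe's own signal and the lowest signal well above background on that array. Depth of an array was described by its share of spots well above background.

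The members and gene lists were chosen with earlier results of these data known. The text names all 10 members, up to 2 rises and 2 falls per list among called genes, and the 3 most correlated genes per member. Outside this rule, Plat and Plaur were named for metastases against adenoma after their values were seen. Alternatives were a normexp offset of 0, processed signals, Aquantile or no scaling across arrays, deposited ratios, no dim probes, all probes, a slide block (fixed or random), a replicate block, fits of only 2 groups, an equal-variance t-test and each array left out. With all probes, each member was still read at the probe that stood for its gene. The procedure was tested on simulated data. The lung and endothelial marker lists were also computed. Against adenoma, 4 of 9 lung epithelium markers were called higher in disseminated cells, with 1 lower, and 4 higher in metastases. Of 9 endothelium markers, 6 and 2 were called higher. Promoters came from RefSeq (GRCm38.p6). Some genes and list counts are not reported here.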

Additional observations from a re-analysis of the deposited data

Results flagged for a closer look

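In 4 of the members, carcinoma replicate 6 was far above the other carcinomas, by a gap that took most of the range of the group. Its log2 ratio was 1.86 for Mmp8, where the next carcinoma had 0.23, and 1.54 for Mmp9 (next −1.78). It was 2.09 for Mmp12 (next −0.41) and 2.96 for Mmp13 (next −1.09). In untreated tumors, Mmp2 was −0.72 in replicate 6, far above the next at −2.01. These were 5 of 70 sets of group and gene examined. In independent sets chance gives about 1 in 20. Here 4 of the 5 lay on carcinoma replicate 6, so the sets were not independent and that rate cannot be set beside the count.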

How the results depend on the processing

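Of the 20 calls of members, 8 were kept under every setting tried: Mmp8 and Mmp9 in disseminated cells against adenoma and carcinoma, Mmp14 in disseminated cells against adenoma, Mmp13 in metastases against adenoma and carcinoma, and Timp3 in metastases against adenoma. All settings used the probe that stood for its gene. The second probe of Mmp14 did not give the Mmp14 call (adjusted p = 0.214 by limma). None of the 32 changes followed (called, of at least 2-fold or with an adjusted p under 0.05) turned its sign under these settings. The second probe of Mmp14 had the opposite sign in metastases against disseminated cells. The number of called members in carcinoma against adenoma (1) was 0 with processed signals or with Aquantile or no scaling across arrays, 2 with the replicate block, with only the groups compared and by the t-test without adjustment, and 0 to 1 with an array left out. In disseminated cells against adenoma (5) it was 3 with Aquantile or no scaling across arrays, the deposited ratios and the adjusted t-test, and 3 to 6 with an array left out. In disseminated cells against carcinoma (4) it was 2 with only the groups compared and by the adjusted t-test, 3 with slide as a random block, 5 with processed signals or an offset of 0, and 3 to 6 with an array left out. With Aquantile or no scaling across arrays, the Timp2 call of this comparison was lost while Mmp12 gained one. In metastases against adenoma (5) it was 3 with the replicate block, 6 with only the groups compared and 3 to 5 with an array left out. In metastases against carcinoma (3) it was 1 by the adjusted t-test and 1 to 5 with an array left out. There the Timp2 call was also lost with Aquantile or no scaling across arrays and the deposited ratios, and the Mmp12 call with only the groups compared. In metastases against disseminated cells (2) it was 0 with processed signals, with only the groups compared and by the adjusted t-test, 1 with slide as a random block or the replicate block, and 1 to 3 with an array left out. The causes were not tested. The count stayed at 0 in the chemotherapy comparisons, where at an unadjusted p under 0.05 the t-test gave 1 member for residual against untreated (Mmp12), 0 for relapsed against untreated and 1 for relapsed against residual tumors (Mmp8). The labels do not say whether the replicate numbers pair the samples. The correlation of same-numbered deviations ran from −0.413 to 0.325 in the progression and from −0.413 to 0.423 in the chemotherapy experiment. Samples of different number were not set beside these, so pairing was neither shown nor excluded. Slide as a fixed block could be fitted only for metastases against carcinoma, disseminated cells against adenoma and the chemotherapy comparisons. Levels of Mmp8, Mmp9, Mmp12 and Mmp13 in adenoma, and of Mmp8 and Mmp12 in carcinoma, are limited by signal over background.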
